A study of Mus musculus with 3 samples.

Results

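The postsynaptic density is the protein layer under the membrane of an excitatory synapse, and 35 genes that encode its scaffold and signalling proteins are described here. They were taken as a named list, were found by joining transcript identifiers to GENCODE symbols, and make up 35 of the 20823 genes with all of 5′ UTR, CDS and 3′ UTR annotated. By role they comprise 4 membrane-associated guanylate kinases (MAGUKs; Dlg1 to Dlg4), 4 SAPAP proteins (Dlgap1 to Dlgap4), 3 Shank and 3 Homer proteins, 5 further PSD-95 partners, 7 GTPase regulators or kinases, 6 proteins linked to actin or adhesion, and 3 adaptors of AMPA receptors. Footprints of ribosomes were sequenced from primary cortical neurons of mouse, cells cultured from cortical tissue, with 1 library for each treatment. WT neurons were untreated. Chx cultures were given cycloheximide, an inhibitor of elongation, for 2 min. Harr cultures were given harringtonine for 2 min and then a cycloheximide pulse. Harringtonine traps ribosomes at initiation and lets elongating ones run off. The labels give no genotype or age. For each library 3 dishes were combined, and all buffers contained cycloheximide at 100 µg per ml, so that WT names neurons without drug in the culture and not a library free of cycloheximide.

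In the excitatory synapse MAGUKs such as PSD-95 bind the tails of glutamate receptors with their PDZ domains, SAPAP proteins link the MAGUK guanylate kinase domain to Shank, and Shank and Homer form the deeper mesh that reaches metabotropic receptors and actin. Ras, Rap, Rac and Arf regulators sit on this scaffold and act on the actin of the spine. Many of these mRNAs are long, and several are found in dendrites, where they can be translated near synapses.

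With 1 library per treatment no difference has a replicate check, no test of a treatment was possible, and no p-value is given. The libraries held 30219197 (WT), 35722483 (Chx) and 9754412 (Harr) aligned reads, and 3 reads correspond to 0.0993, 0.084 and 0.308 reads per 1000000 library reads. Intervals and standard errors (SE) cover counting error only, since each treatment has 1 library. It is also not stated how reads amplified from 1 molecule were recognised. Reads need not be independent molecules, so the counting error itself may be larger than given. Reads were placed by their 5′ ends, so a ribosome on the start codon falls into the 5′ UTR. Marker genes were read as a check of the label: the summed CDS reads per 1000000 library reads were 6511 (WT), 6097 (Chx) and 4328 (Harr) for 8 neuronal genes, 213, 195 and 78.8 for 4 astrocyte genes, 2.68, 2.80 and 1.44 for 4 microglial genes, and 5.73, 6.52 and 2.15 for 4 oligodendrocyte genes, of which Mobp and Mog were at 0 in every library. The 4 interneuron genes summed to 1348, 1205 and 592, the 4 excitatory genes to 211, 247 and 186, and the 4 endothelial or stromal genes to 13.2, 11.9 and 9.94. The part of glial cells in the values below was not tested, and fewer cells of a type cannot be told apart from fewer footprints per cell.

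The start codons of 6 members are shown because most of the comparisons below set reads upstream of them against reads downstream. The sequences were read from GENCODE M21 transcripts on mm10, run 5′ to 3′ and carry the start codon in capitals. The first base of the ATG lies at chr11:70018920 in Dlg4, chr2:156700679 in Dlgap4, chr15:89499857 in Shank3, chr13:93305298 in Homer1, chr2:25054601 in Nsmf and chr15:79229813 in Pick1, all on the plus strand.
Dlg4: aggccccccaacATGgactgtctctgt
Dlgap4: cgggccaggatcATGaaaggcctcggt
Shank3: gctagcaccgggATGgacggccccggg
Homer1: tcattgggcaaaATGggggagcaacct
Nsmf: ggcgccgtgaccATGggtgccgccgcc
Pick1: actctcggaaccATGtttgcagactta
A purine 3 bases before the ATG and a G right after it are the known features of a favourable start context. The purine was present in 29 of 34 members with a matched sequence (85.3%), against 84.1% of 20430 genes, and the G in 12 members (35.3%), against 49.2%. Both were present in 10 members (29.4%), against 40.9%. The members' 5′ UTRs had a median length of 340 nt and a median GC content of 70.3%, against 198 nt and 65.1% in the 11423 genes with a matched sequence and at least 100 CDS reads. At least 1 ATG upstream of the start codon was found in 27 of the 34 members (79.4%), against 54.0% of those genes, with the 5′ UTRs of the members also the longer ones.

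Footprint density in the CDS, in reads per kilobase of CDS and 1000000 library reads (RPKM), had a median over the 35 members of 10.9 in WT, 12.2 in Chx and 9.37 in Harr. The medians of the 11459 genes with at least 100 CDS reads were 11.7, 12.4 and 8.001, and 16, 17 and 19 members lay above them, so the members were neither high nor low as a group. Dlgap4, which links PSD-95 to Shank, had the highest WT level. Its CDS held 3598 reads in WT, 4649 in Chx and 1150 in Harr, or 40.0 RPKM (95% interval 38.7 to 41.3), 43.7 and 39.6. Abi1, a subunit of the actin-nucleating WAVE complex, had 38.1 RPKM in WT, 34.9 in Chx and 20.8 in Harr (1646, 1779 and 289 reads). Its paralogue Abi2 had 37.5, 45.7 and 37.5 RPKM (1518, 2191 and 491 reads). The WT intervals of these 3 genes overlapped, so their order is not resolved, whereas in Harr Abi1 lay well below the other two.

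At the other end stood Grip2, a multi-PDZ adaptor of the AMPA receptor subunit GluA2, with 102, 103 and 26 CDS reads, or 1.37, 1.17 and 1.08 RPKM. Iqsec2 (BRAG1), a guanine nucleotide exchange factor for Arf6, had 2.05, 1.83 and 2.11 RPKM from 277, 292 and 92 reads. Kalrn, encoding the Rac exchange factor kalirin, had 2.74, 3.12 and 4.22 RPKM from 322, 433 and 160 reads on its longest transcript. On its most read transcript it had 6.04, 6.68 and 6.66 RPKM from 1623, 2124 and 578 reads, so its low place depended on the transcript. The WT intervals of Grip2, Iqsec2 and Kalrn did not overlap, and that of Kalrn overlapped the next gene, Homer2 (2.80 RPKM). For Grip2 and Iqsec2 the intervals of the 3 libraries overlapped, and for Kalrn Harr lay above WT and Chx on the longest transcript. Within families the levels were far apart. The closely related Grip1 and Grip2 had 19.6 and 1.37 RPKM in WT, and the 4 SAPAP genes ranged from 5.06 (Dlgap2) to 40.0 (Dlgap4). The 3 Shank genes, master scaffolds of the deep layer, lay close together at 3.95 (Shank2), 4.40 (Shank1) and 5.84 (Shank3). The highest of the 3 libraries was WT for 7 members, Chx for 16 and Harr for 12. Counting intervals were apart with Chx above WT in 14 members, where they were so in 24.2% of 11459 genes, and with WT above Chx in 3 (12.2% of genes). Chx lay above Harr in 12 members (57.2% of genes) and Harr above Chx in 4 (6.87%). WT lay above Harr in 8 members (51.0% of genes) and Harr above WT in 7 (9.07%).

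**Figure D1:**
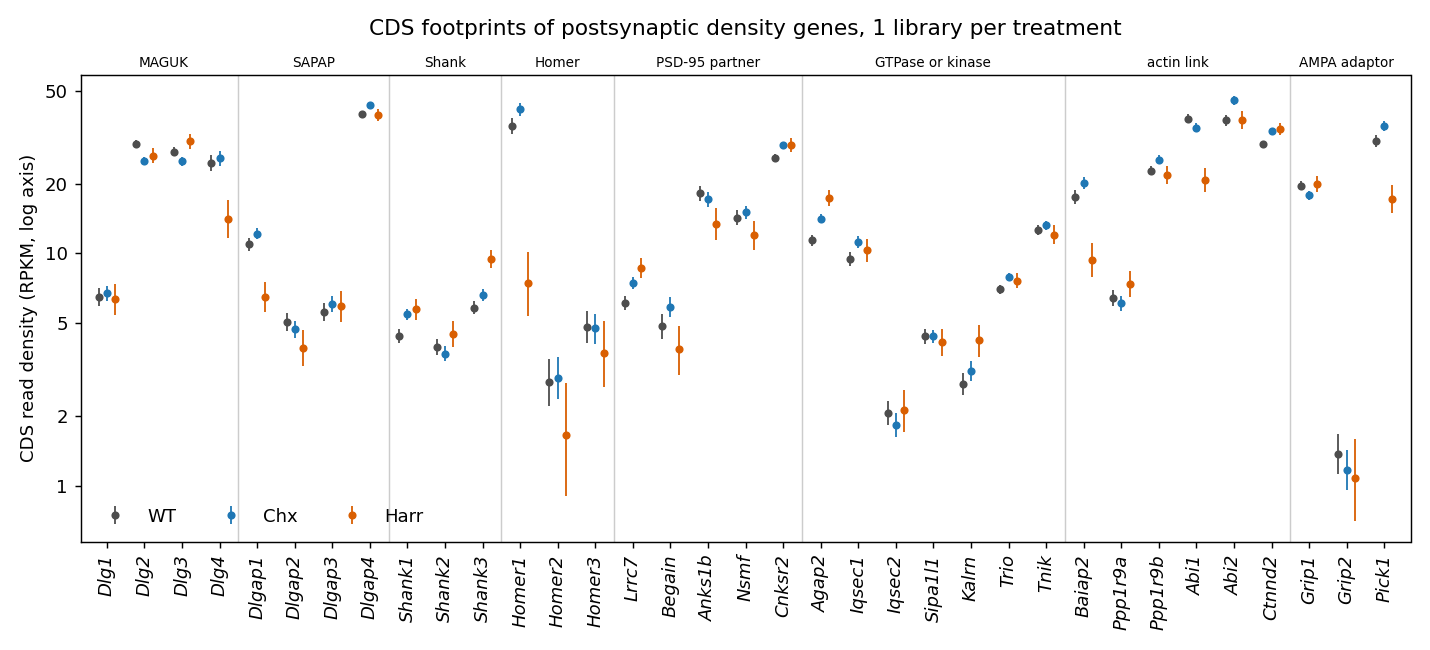
CDS read density of the 35 members in RPKM on a log axis, grouped by role, with 1 point for each library (grey WT, blue Chx, orange Harr) and bars for the 95% counting interval. Levels run from 1.37 (Grip2) to 40.0 (Dlgap4) in WT, and Homer1 has the widest gap between libraries, with 7.49 in Harr against 41.8 in Chx.

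The next question was where on these mRNAs the footprints lay. The 5′ UTR held 10.28% of the members' reads in WT (Wilson 95% interval 10 to 10.57), 15.58% in Chx (15.29 to 15.88) and 32.37% in Harr (31.71 to 33.03). Over all genes the shares were 6.14%, 8.71% and 33.5%. The members thus had the larger 5′ UTR share without harringtonine and a slightly smaller one with it. Per nucleotide and summed over genes, their 5′ UTRs had 0.910 times the density of their CDS in WT, 1.46 times in Chx and 3.88 times in Harr. Over all genes these were 0.419, 0.608 and 3.36. A few genes can carry such sums. The median ratio by gene was 0.455, 0.774 and 3.58 in the 34 members with a matched sequence. It was 0.374, 0.658 and 3.75 in the 11423 genes with a matched sequence, so the median member differed little from them. The 5′ UTR density exceeded the CDS density in 12 members in WT, 14 in Chx and 27 in Harr, where it did in 19.9%, 34.6% and 83.0% of genes. The longest transcript was not the most read one in 19 members. With the most read transcript of each gene the shares were 12.98%, 18.38% and 37.83% for the members and 6.39%, 9.05% and 34.6% for all genes, so that the order in Harr was then the other way round.

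The families differed widely. The Homer genes, whose EVH1 domains bind Shank and group I metabotropic receptors, had 39.9% of their reads in the 5′ UTR in WT, 51.9% in Chx and 86.6% in Harr. The PSD-95 partners had 21.2%, 30.9% and 46.8%, and the GTPase regulators and kinases 13.3%, 15.02% and 33.2%. SAPAP genes had 9.57%, 14.3% and 34.6%, actin-linked genes 6.45%, 11.3% and 29.4%, and AMPA receptor adaptors 3.82%, 7.19% and 25.8%. The MAGUKs, at 2.71%, 4.36% and 8.33%, and the Shank genes, at 1.05%, 1.398% and 4.49%, had the smallest shares. For these families the share depended on the transcript used: on the most read transcript the MAGUKs had 16.6%, 21.2% and 33.5% and the Shank genes 3.93%, 5.53% and 9.20%. A family mean here is a sum over 3 to 7 genes, and 1 gene can carry it, as Homer1 carried the Homer share with 504, 1144 and 675 of the 560, 1218 and 699 5′ UTR reads.

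To follow single genes, 5′ UTR reads were set against CDS reads in a pair of libraries as a log2 odds ratio (pseudocount 0.5). A gene is called higher or lower here when it had at least 10 UTR reads in the pair, a change of at least 2-fold and a 95% counting interval without 0. Against Chx, 30 members had enough reads, and 22 were called higher and 0 lower, where 88.7% of 10805 genes were called higher. Their median log2 odds ratio was 1.54, against 2.45 over all genes, and 5 of the 30 members lay above that median. Against WT, 29 members had enough reads, 27 were called higher and 0 lower, where 93.7% of 10383 genes were called higher, with medians of 2.17 and 3.23. The Harr library is common to both comparisons. The share of members called was therefore near or below that of all genes, and the members' values were lower. Dlg2, Shank2, Begain, Iqsec1 and Grip2 had too few 5′ UTR reads on their longest transcript against both controls, and Kalrn against WT.

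The largest value against Chx belonged to Dlg1 (SAP97), a MAGUK, at 3.85 ± 0.70 (SE), but it rested on 5 reads in WT, 5 in Chx and 20 in Harr. On its most read transcript Dlg1 had 12, 42 and 50 reads and 2.20 ± 0.33 and was no longer the highest member. Homer1 followed with 3.57 ± 0.24 from 504, 1144 and 675 5′ UTR reads. Pick1, a PDZ and BAR domain adaptor of GluA2, had 3.43 ± 0.18 from 76, 168 and 240 reads. Baiap2 (IRSp53), which bends membranes and binds actin regulators, had 3.27 ± 0.32 from 14, 43 and 53 reads. For Homer1, Pick1 and Baiap2 the CDS reads in Harr were also among the lowest relative to Chx, as described below, and both parts enter the ratio. For Pick1, 78.0% of the 25-nt words of the CDS also occur in transcripts of Gm16471, Gm49486 or Olfr571, so its counts are uncertain, while each of the other 33 members with a sequence shared under 1%.

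The smallest values belonged to Homer2, Iqsec2 and Kalrn. Homer2, an EVH1 adaptor, had 31, 52 and 5 reads in its 5′ UTR and a log2 odds ratio of −0.60 ± 0.76, and 187 of the 337 nt of this 5′ UTR are coding in another transcript. On its most read transcript it had 8, 46 and 32 reads and 2.31 ± 0.48. Iqsec2 had 17, 56 and 21 reads and 0.27 ± 0.40, and Kalrn 0, 9 and 4 reads and 0.36 ± 0.84. The intervals of these 3 values include 0, so no change could be seen at this depth. Anks1b (AIDA-1), which moves from synapse to nucleus, had 214, 305 and 90 reads and 0.47 ± 0.21 on its longest transcript, where 74 of the 87 nt of the 5′ UTR are coding in another transcript, and 290, 419 and 486 reads and 2.28 ± 0.13 on its most read one. The choice of transcript thus decided the call of Homer2 and Anks1b. On the most read transcripts 26 members were called higher against Chx, beside 89.1% of 11017 genes, and Dlg2, Dlgap3, Homer2, Anks1b and Iqsec1 gained the call and Dlg4 lost it.

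Among the other families the pattern was graded. In the SAPAP family Dlgap1 (GKAP) and Dlgap2 had log2 odds ratios against Chx of 2.41 ± 0.14 and 2.47 ± 0.35, Dlgap4 1.79 ± 0.21 and Dlgap3 0.96 ± 0.21. Dlgap1 had 371 reads in WT, 831 in Chx and 646 in Harr over a 5′ UTR of 1045 nt, more per CDS read than any other member but Homer1 in Harr (346 per 100 CDS reads). Shank1 and Shank3 had 2.25 ± 0.52 and 1.36 ± 0.36, from 16, 13 and 18 and from 10, 33 and 33 reads. Among the MAGUKs Dlg4 (PSD-95) had 2.23 ± 0.32, a call that was lost on its most read transcript, and Dlg3 (SAP102), the scaffold of young synapses, had 0.50 ± 0.18. Homer3 had 2.00 ± 0.51 from 25, 22 and 19 reads.

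The PSD-95 partners with enough reads had low values. Cnksr2 (MAGUIN), a scaffold of the Ras pathway, had 191, 692 and 548 5′ UTR reads and 1.53 ± 0.10. Lrrc7 (densin-180) had 525, 737 and 550 reads in a 5′ UTR of 1289 nt and 1.23 ± 0.12. Nsmf (Jacob), a messenger from synapse to nucleus, had 421, 1219 and 400 reads and 0.59 ± 0.14. Lrrc7 and Nsmf already had many 5′ UTR reads without harringtonine, with 63.3 and 61.0 per 100 CDS reads in WT, whereas Cnksr2 had 7.92. Begain, which binds the guanylate kinase domain, had only 3, 4 and 4 reads.

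In the signalling group Tnik, a kinase that binds Traf2 and Nck, had 113, 239 and 215 reads and 1.85 ± 0.16. Agap2 (PIKE), a GTPase and Arf GTPase-activating protein, had 491, 697 and 663 reads and 1.50 ± 0.10. Sipa1l1 (SPAR), which inactivates Rap, had 226, 251 and 171 reads and 1.40 ± 0.18, and Trio, an exchange factor for Rac, 204, 343 and 189 reads and 1.07 ± 0.14. All 4 were called higher and all 4 lay below the median of all genes. Iqsec1 (BRAG2) had 0, 4 and 3 reads on its longest transcript, while another annotated 5′ UTR of 333 nt held 73, 121 and 87.

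In the actin-linked group Ppp1r9a (neurabin), which targets protein phosphatase 1 to actin, had 21, 63 and 108 reads and 2.37 ± 0.25, and its relative Ppp1r9b (spinophilin) 445, 901 and 621 reads and 1.55 ± 0.10. Abi1 and Abi2 had 2.32 ± 0.26 and 2.00 ± 0.21. Ctnnd2 (delta-catenin), which binds N-cadherin, had 115, 416 and 301 reads and 1.38 ± 0.12. Grip1 had 47, 116 and 67 reads and 0.93 ± 0.23, short of the 2-fold limit. Counted per 100 CDS reads, 5′ UTR reads rose in the order WT, Chx, Harr in 24 of the 35 members, where they did in 75.3% of 11457 genes, and Harr was the highest library in 32, where it was so in 94.1%.

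**Figure D2:**
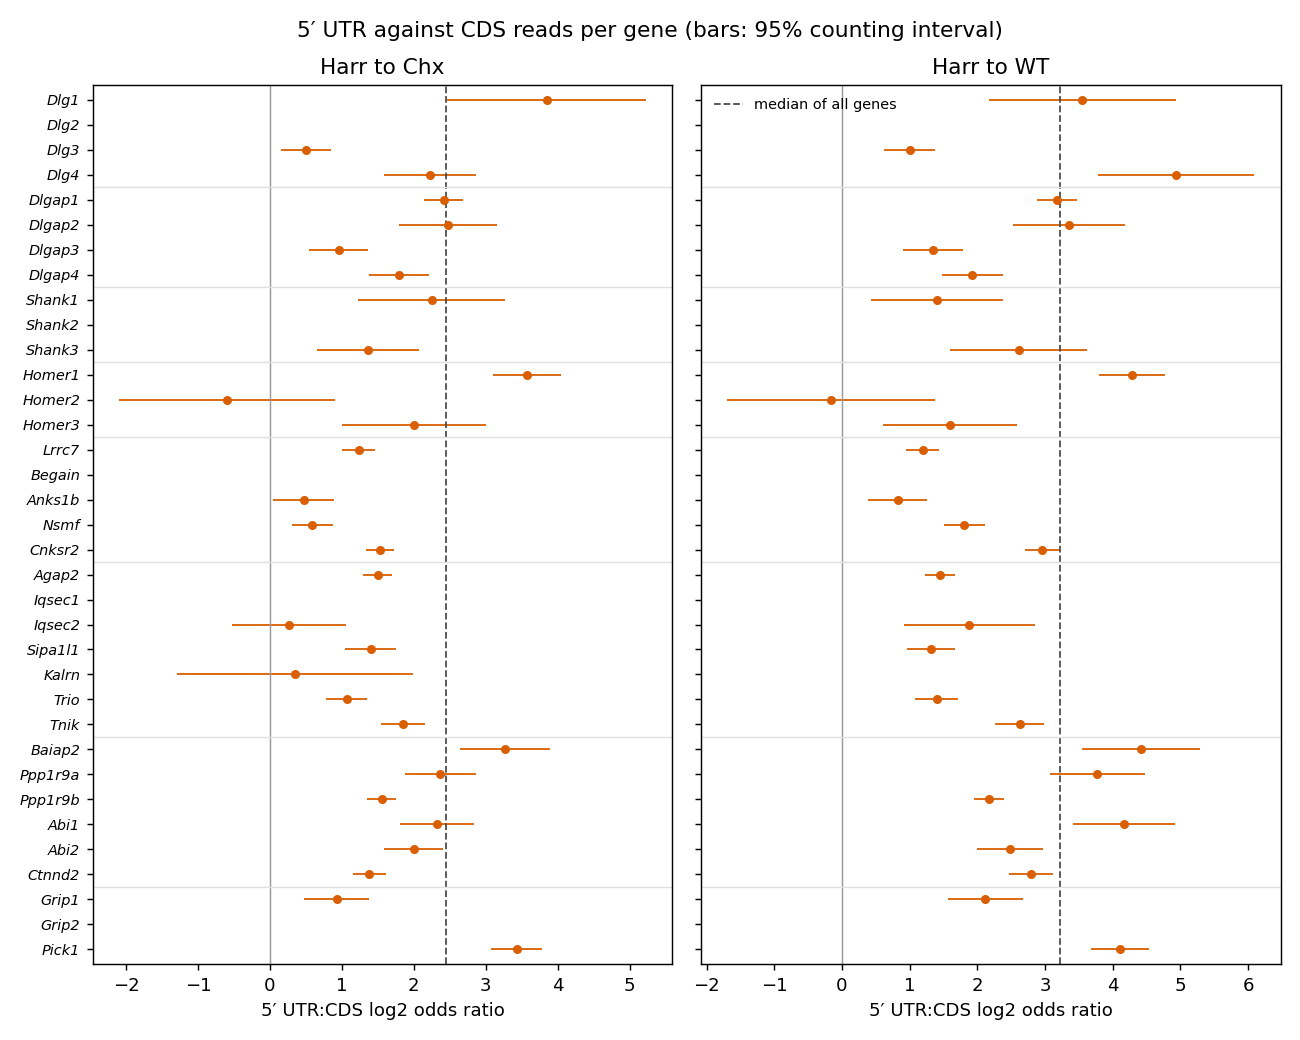
5′ UTR:CDS log2 odds ratio of each member, Harr to Chx (left) and Harr to WT (right), with bars for the 95% counting interval and a dashed line for the median of all genes (2.45 and 3.23). Members without a point had fewer than 10 5′ UTR reads in the pair, and 5 of 30 points at the left lie above the dashed line.

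Where neighbouring transcripts cut a 5′ UTR into short pieces, the reads could be placed more closely. Pieces of up to 30 nt were kept if they held at least 15 reads in Harr, so that Harr entered their choice, and no count over them is a result. Of the 12 kept, 7 held more reads in Harr than in Chx and 5 fewer. These counts are not scaled for depth, and the Harr library held 9754412 reads against 35722483 in Chx. Fewer reads in Harr therefore need not mean fewer per library read. The piece of Nsmf from 166 to 146 nt before the start codon, 21 nt long, held 38 reads in WT, 180 in Chx and 237 in Harr. This was 9.03%, 14.8% and 59.3% of the reads of the 5′ UTR. The next 12 nt held 78, 218 and 56 reads, and the 133 nt up to the start codon held 287, 718 and 84. In Harr the reads were thus gathered in the 21 nt, and in Chx and WT most lay downstream of it. A distance of 12 nt from the 5′ end of a footprint to the initiating codon was assumed. In their search for reading frames the authors placed this site by the 3′ end instead, also with 12 nt. With the assumed shift the piece corresponds to the window at chr2:25054447-25054469, plus strand of mm10, which is printed because it holds 1 ATG (in capitals).
Nsmf window: cgctgggtgcggccATGcggggc
This ATG lies 140 nt before the start codon, in another frame, and opens a reading frame of 36 codons whose stop lies 32 nt before the start codon. Of all windows of 23 nt in annotated 5′ UTRs, 16.4% hold an ATG, so the match is a description and not a mapped initiation site. In Dlgap1 the 26 nt from 52 to 27 nt before an inner annotated start codon held 12, 18 and 41 reads. Their window at chr17:70522148-70522175 also held 1 ATG, as do 19.7% of windows of its length.
Dlgap1 window: ggaagccagagctctcagagATGaagct
Other short pieces held more reads in Harr than in Chx without an ATG in their window. An 18-nt piece of Anks1b held 22, 29 and 65 reads, and a 24-nt piece of Ctnnd2 held 1, 21 and 39. The 60 nt that follow in Ctnnd2 held 27, 251 and 121.

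Homer1 had the most 5′ UTR reads of all members when each was read on its most read transcript. On this transcript, with a 5′ UTR of 1541 nt, it had 786 reads in WT, 1708 in Chx and 1148 in Harr. The piece from 803 to 500 nt before the start codon held 295, 857 and 438 of them, or 97.0, 282 and 144 per 100 nt. The piece from 195 to 140 nt before it held 47, 35 and 3 reads, and the piece from 114 to 21 nt before it 14, 35 and 44. These 2 pieces changed in opposite directions between WT and Harr. The last 20 nt before the start codon held 0 reads in every library. The start exon of Homer1 has only 5 coding nt, and those of Dlg1, Dlg2, Dlgap2, Homer3 and Lrrc7 also have fewer than 25. In these 6 members the 73 coding nt of the start exons held 0, 0 and 1 reads, where the mean density of each CDS gives 30.6, 34.2 and 7.61. In genes with at least 1000 CDS reads, the 327 coding segments of 25 nt or less held 0.0526 (WT), 0.0416 (Chx) and 0.0397 (Harr) of the reads that their CDS density gives, and segments of over 100 and up to 200 nt 1.00, 1.00 and 0.887. How far this lowers the reads around the start codons of these 6 members was not tested.

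**Figure D3:**
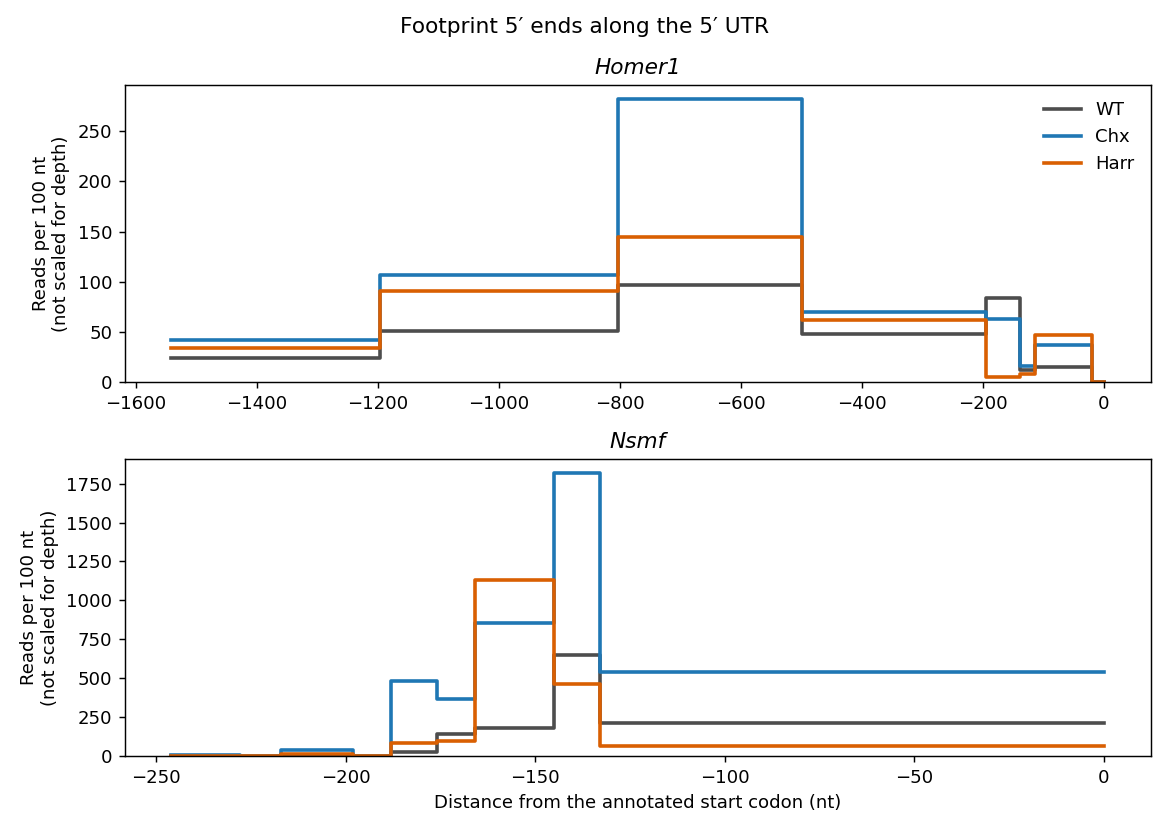
Footprint 5′ ends per 100 nt, not scaled for library depth, along the 5′ UTRs of Homer1 and Nsmf, against the distance from the annotated start codon in nt (grey WT, blue Chx, orange Harr); each step is a piece delimited by annotated transcripts. In Nsmf the Harr line peaks in the 21-nt piece ending 146 nt before the start codon, and the Chx and WT lines peak in the 12 nt after it.

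The CDS itself was compared as reads per 1000000 CDS reads. Harr against Chx, the median log2 ratio over the 35 members was 0.46, against −0.05 over 11459 genes. Shank3 alone was called higher, where 4.63% of genes were called higher, and Homer1 alone lower, where 13.7% were called lower. Per 1000000 library reads the median over members was −0.09 and that over all genes −0.60, so that the sign of single values depends on the scaling while the distance of the members from all genes, 0.50, does not. Under each scaling 27 of the 35 members lay above the median of all genes. Scaled to library reads, Shank3 had 0.51 and was not called, and Homer1 (−2.46), Baiap2 (−1.09) and Pick1 (−1.04) were called lower, where 31.2% of genes were. With CDS segments starting within 100 nt of the start codon left out, 7 members were called higher against Chx and 8 against WT, where 5.75% and 6.05% of genes were. Whole exon segments were left out here, such as 1498 nt of Sipa1l1 and 1371 nt of Ppp1r9b.

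Shank3 had 917 CDS reads in WT, 1230 in Chx and 479 in Harr and a log2 ratio of 1.06 ± 0.08. Kalrn followed with 322, 433 and 160 reads and 0.99 ± 0.13, and Agap2 with 1227, 1795 and 605 reads and 0.85 ± 0.07. The lowest was Homer1 with 603, 837 and 41 reads and −1.91 ± 0.23, then Baiap2 with 818, 1106 and 141 reads and −0.55 ± 0.13 and Pick1 with 1156, 1588 and 210 reads and −0.50 ± 0.11. The low members have short CDSs and the high ones long CDSs. Over all genes the median ratio went from −0.68 for CDSs under 600 nt to −0.54, −0.07, 0.37 and 0.66 in the classes 600 to 1200, 1200 to 2000, 2000 to 4000 and over 4000 nt. The members fell into these classes as 1, 3, 7, 17 and 7 genes. Set against the median of its own class, 25 members lay above and 10 below, with a median difference of 0.11, so most of the distance between the members and all genes went with CDS length. Homer1 stayed 1.23 below its class, Dlgap1 0.72 below (976, 1283 and 187 reads), Baiap2 0.48 below and Pick1 0.43 below. Homer3 lay 0.75 above its class from 156, 182 and 39 reads.

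Against WT, which shares the Harr library, Shank3 (1.21 ± 0.08), Kalrn (1.14 ± 0.14), Agap2 (1.12 ± 0.07) and Lrrc7 (1.02 ± 0.09) were called higher, where 5.30% of genes were called higher. Homer1 (−1.72 ± 0.23) was again called lower, where 14.3% were called lower. The median over members was 0.49. Kalrn changes with the transcript, since its most read one has a CDS of 8895 nt with 1623, 2124 and 578 reads and a Harr to Chx ratio of 0.54 ± 0.07. Its Harr to WT ratio there was 0.65 ± 0.07, so that it was not called, and 3 members were called higher on the most read transcripts, where 5.23% of genes were. Dlg4 is read on a CDS of only 822 nt in its longest transcript, with 611, 755 and 113 reads and −0.31 ± 0.15, while its most read transcript has a CDS of 2166 nt with 1329, 1655 and 461 reads and 0.58 ± 0.08. For PSD-95 the sign of the ratio on this scaling therefore depended on the transcript.

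**Figure D4:**
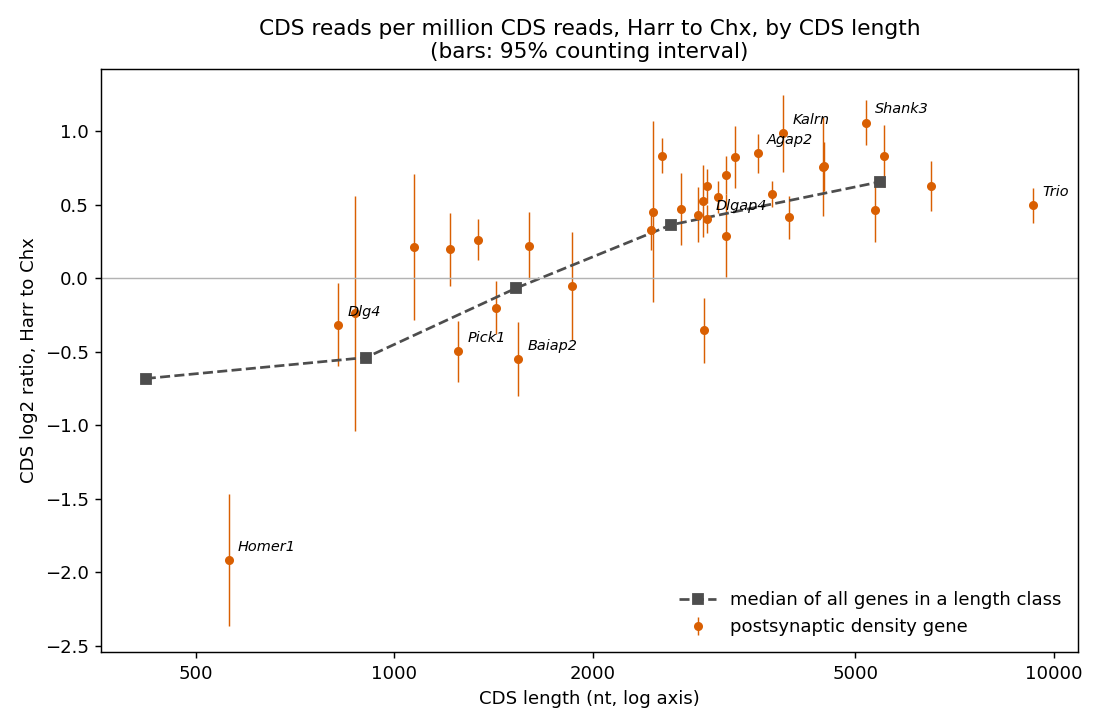
Harr to Chx log2 ratio of the CDS, from reads per 1000000 CDS reads, against CDS length of the longest transcript on a log axis, with 1 orange point per member and bars for the 95% counting interval. Grey squares are medians of all genes in 5 length classes, rising from −0.68 to 0.66; Homer1 lies 1.23 below its class, and scaled to library reads the median of all genes moves from −0.05 to −0.60 and all points with it.

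A relation of the same direction was seen along the CDS when long members were summed. In the 24 members with a CDS of at least 2000 nt, reads were summed by the distance of an exon segment from the start codon. Relative to segments beyond 3000 nt, the ratio of Harr to Chx was 0.43 within 300 nt, 0.40 from 300 to 900 nt, 0.75 from 900 to 1800 nt and 0.85 from 1800 to 3000 nt. In 4839 genes with such CDSs it was 0.40, 0.29, 0.78 and 1.02. Harr to WT gave 0.52, 0.44, 0.78 and 0.82 for the members. Chx to WT gave 1.21, 1.09, 1.03 and 0.97, against 0.98, 0.92, 0.96 and 0.97 over all genes, so that in the members Chx had more reads near the start relative to WT. Within 300 nt this value was 1.12 without Ctnnd2 and 1.155 on the most read transcripts, so its size rested in part on 1 gene. In Chx, 32 of 35 members had more reads per nt in the 5′ part of the CDS than in the 3′ part, when cut at the middle, with a median quotient of 1.90, against 84.8% of genes and 1.60. In WT these were 28 members and 1.69, against 79.3% and 1.55, and in Harr 17 members and 0.97, against 51.9% and 1.05. The quotient was lower in Harr than in Chx in 30 of 35 members. In Dlg2, for example, it was not, with 0.504 in Chx and 0.553 in Harr. In WT and Chx the slope toward the 5′ part was thus common to most genes, and in Harr it was not seen in the median member. Spinophilin shows this with 1315, 1821 and 288 reads in its coding exon 1 of 1371 nt and 373, 403 and 234 in the other 1083 nt. In Harr both stretches had nearly the same density, 21.01 and 21.6 reads per 100 nt. Neurabin had 500, 532 and 112 reads in exon 1 (1398 nt) and 141, 186 and 125 in the rest (1890 nt). Sipa1l1 had 408, 449 and 62 in exon 1 (1498 nt) and 303, 390 and 154 in the rest (3851 nt).

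Several long members were not read over the whole of their longest annotated CDS. In 5 members at least 10% of the CDS lay in segments with under 0.1 of the gene's own WT density: Shank2 (19.1%), Dlgap4 (16.7%), Dlg2 (15.04%), Dlgap3 (10.7%) and Homer3 (10.4%). Such genes made up 4.45% of 10003 genes with at least 100 CDS reads in WT. Of the members with a CDS of at least 2000 nt, 4 of 24 passed, against 4.34% of 3067 genes of that kind. In 20 members no such segment was found, and in 85.1% of the 10003 genes. Shank2 had 5, 4 and 0 reads in its coding exons 1 to 9 (1174 nt), 85, 98 and 16 in exons 10 to 13 (679 nt) and 569, 629 and 227 in the rest (3673 nt). Its annotated 5′ UTR held 0, 0 and 1 reads. Other annotated 5′ UTRs of Shank2, which lead to start codons farther inside, held 74, 144 and 61 reads over 391 nt and 85, 134 and 88 over 530 nt. Reads of Shank2 thus set in near the inner annotated starts. That of its most read transcript is printed, with the ATG in capitals and its first base at chr7:144175920 on the plus strand.
Shank2 inner start: gtcacagggaaaATGaagtctttgtta
Shank3 was read from its first exons, with 167, 278 and 133 reads in exons 1 to 8 (963 nt) and 750, 952 and 346 after them (4230 nt). Even so, an inner 5′ UTR of 312 nt held 134, 225 and 162 reads and that of the longest transcript (234 nt) 10, 33 and 33.

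Dlgap4 was read mainly in its 3′ part. Coding exons 1 to 5 (1648 nt) held 401, 557 and 100 reads, or 24.3, 33.8 and 6.07 per 100 nt, and exons 6 to 11 (1331 nt) held 3197, 4092 and 1050, or 240, 307 and 78.9 per 100 nt. Exon 6 alone had 609, 987 and 591 reads, 163 per 100 nt in Harr, and exons 8 to 11 had 2583, 3102 and 450, 51.1 per 100 nt in Harr. An inner annotated 5′ UTR of 580 nt held 120, 183 and 228 reads, against 74, 105 and 90 in that of the longest transcript. The high level of Dlgap4 in RPKM is therefore that of its 3′ exons.

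Trio showed the reverse. Its exons 1 to 48 (7644 nt) held 1940, 2614 and 674 reads, and exons 49 to 57 (1668 nt) 32, 17 and 19. Its last 9 coding exons thus had 1.92, 1.02 and 1.14 reads per 100 nt, against 25.4, 34.2 and 8.82 before them. Kalirin is the paralogue of Trio. On its most read transcript exons 1 to 34 (5092 nt) held 1302, 1693 and 419 reads and exons 35 to 60 (3803 nt) 321, 431 and 159, so its 3′ exons were read at 8.44, 11.3 and 4.18 per 100 nt. Dlg2 (PSD-93) had 5, 22 and 4 reads in exons 1 to 5 (468 nt) and 2666, 2645 and 765 in exons 6 to 27. Its most read transcript starts inside and has a 5′ UTR of 301 nt with 436, 708 and 415 reads, against 6, 0 and 1 in the 5′ UTR of the longest. On that transcript the log2 odds ratio of Dlg2 against Chx was 1.04 ± 0.11. Dlg4 has on its most read transcript a 5′ UTR of 479 nt with 715, 948 and 512 reads and a log2 odds ratio of 0.96 ± 0.11, short of the 2-fold limit, in place of 2.23 ± 0.32 on the 41 nt of the longest.

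**Figure D5:**
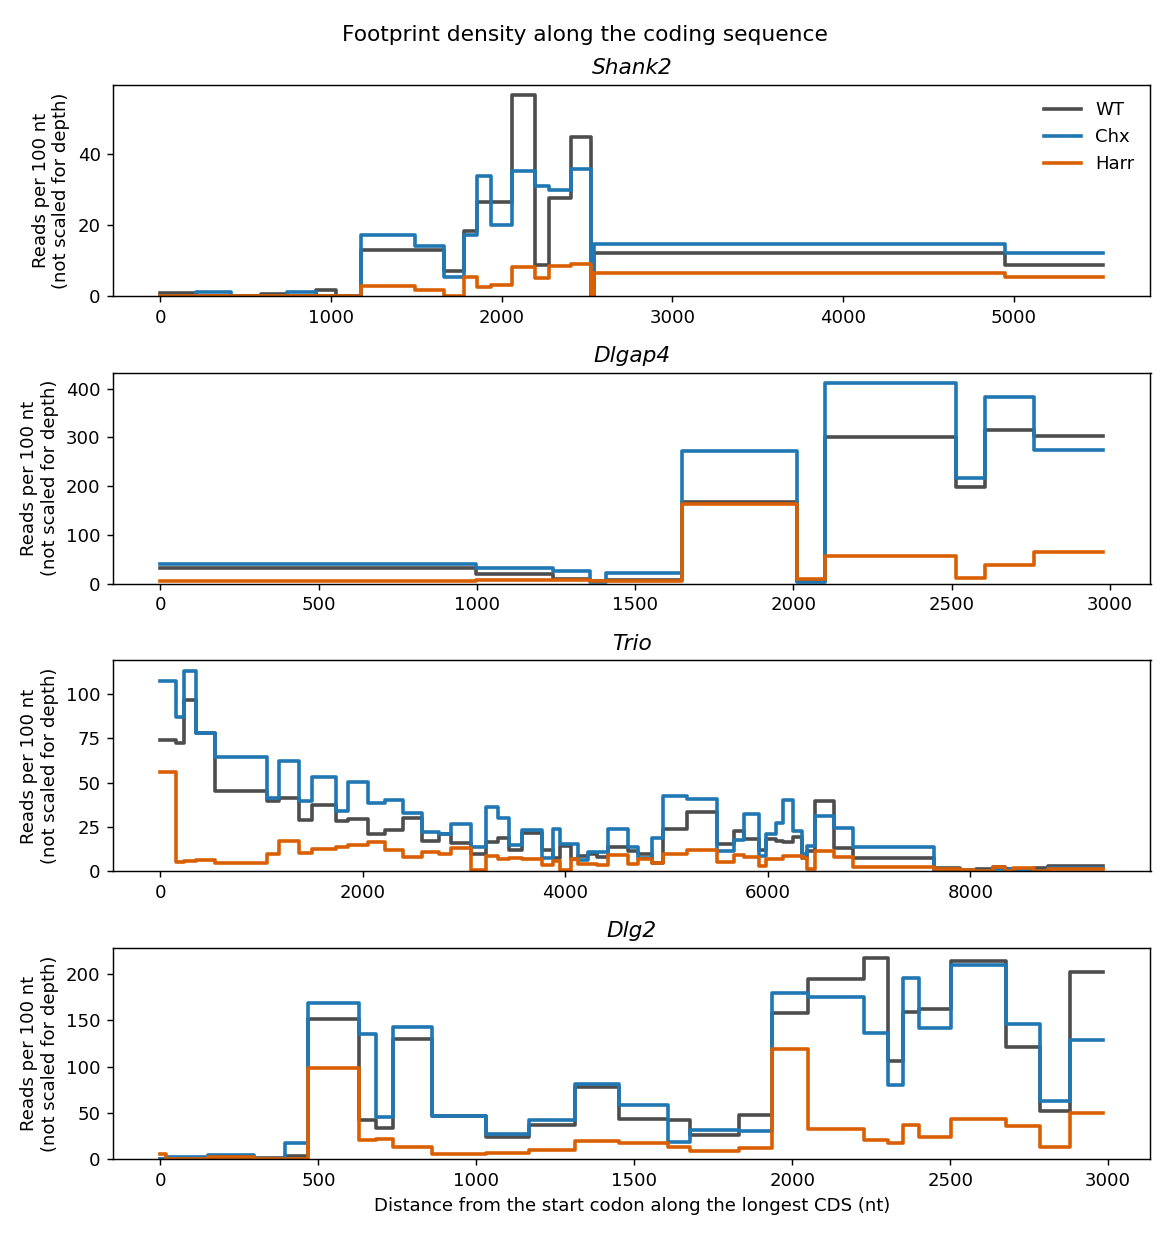
Footprint 5′ ends per 100 nt, not scaled for library depth, along the longest annotated CDS of Shank2, Dlgap4, Trio and Dlg2 (grey WT, blue Chx, orange Harr), each step being a coding exon. The first 1174 nt of Shank2, 468 nt of Dlg2 and 1648 nt of Dlgap4 are low in all libraries, as are the last 1668 nt of Trio.

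Homer1 makes both short and long proteins, and its longest transcript encodes a short form with a CDS of 561 nt and a 3′ UTR of 4349 nt. The coding exons 2 to 5, shared by both forms, held 602, 821 and 37 reads, or 115, 157 and 7.09 per 100 nt. The coding exons found in the long form alone held 486, 538 and 78, or 90.3, 100.0 and 14.5 per 100 nt. In WT and Chx the shared exons were the denser ones, and in Harr the exons of the long form were. The CDS of 561 nt from which the low ratio of Homer1 was taken consists mainly of the shared exons. The 3′ UTR of the short form held 10, 12 and 12 reads.

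Annotated 3′ UTRs, which serve as a region without annotated translation, held 0.853% of the members' reads in WT, 0.596% in Chx and 2.06% in Harr, against 2.18%, 1.71% and 4.10% over all genes. Harr against Chx, 17 members had enough reads and 15 were called higher, where 85.6% of 5268 genes were called higher, with a median log2 odds ratio of 2.87 (3.73 over all genes). Harr against WT, 12 of 17 were called higher, where 79.0% of 5854 genes were, with medians of 2.10 and 2.58. The 3′ UTR therefore rose relative to the CDS in Harr as the 5′ UTR did, from small counts. The most reads were in Anks1b (141, 168 and 117), whose 3′ UTR overlaps coding exons of other transcripts, then in Dlgap4 (22, 21 and 44), Baiap2 (26, 32 and 20) and Dlg2 (24, 14 and 30). Chx against WT, 4 of 16 members were called lower, where 38.5% of 4644 genes were. They were Dlg3 (14 and 4 reads), Ppp1r9b (11 and 3), Grip2 (14 and 3) and Pick1 (14 and 5 in WT and Chx). For Grip2 556 nt of this 3′ UTR are coding in another transcript, and on its most read transcript, with 1 and 0 reads, it was not called.

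The CDS levels of the members differed little between Chx and WT. The median CDS log2 ratio of Chx to WT was 0.08 (0.03 over all genes), 0 of 35 members were called higher, where 0.201% of genes were, and 0 were called lower. Shank1 (865 and 1269 reads, 0.28 ± 0.06), Agap2 (1227 and 1795, 0.27 ± 0.05) and Abi2 (1518 and 2191, 0.25 ± 0.05) had the highest ratios. Dlg2 (2671 and 2667, −0.28 ± 0.04), Grip2 (102 and 103, −0.26 ± 0.20) and Iqsec2 (277 and 292, −0.20 ± 0.12) had the lowest. The 5′ UTR moved more. Of 29 members with enough reads 10 were called higher against CDS and 0 lower, where 30.2% of 10482 genes were called higher, with medians of 0.68 and 0.66. The 10 were Dlg4 (2.71 ± 0.56), Abi1 (1.84 ± 0.37), Iqsec2 (1.62 ± 0.41), Cnksr2 (1.43 ± 0.12), Ctnnd2 (1.41 ± 0.16), Ppp1r9a (1.40 ± 0.37), Shank3 (1.25 ± 0.51), Nsmf (1.22 ± 0.11), Grip1 (1.19 ± 0.25) and Baiap2 (1.15 ± 0.44). For Dlg4 these were 7 and 60 reads in a 5′ UTR of 41 nt, and on its most read transcript the value was 0.09.

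Other synaptic gene lists gave a frame for these values. Of 50 further genes of the postsynaptic density, among them receptors and kinases, 48 had enough reads and 44 were called higher in 5′ UTR:CDS in Harr against Chx, where 88.7% of all genes were, with a median of 2.14 (2.45 over all genes). The lowest of these were Magi1 (−0.25 ± 0.65, from 8, 20 and 6 reads), a MAGUK with inverted domains, and Arhgap32 (0.30 ± 0.51, from 24, 29 and 11), a GTPase-activating protein. The highest were Camk2b (4.57 ± 0.09, from 238, 363 and 1266), a subunit of the calcium/calmodulin-dependent kinase II, and Lin7c (4.51 ± 0.15, from 189, 319 and 415), a small PDZ protein. Of 7 genes of the inhibitory postsynapse 6 were called higher, with a median of 2.01, and of 16 active zone genes with enough reads 13 were, with a median of 1.42. These counts lie near the share of all genes. The scaffold genes, at 1.54, lay between the active zone and inhibitory lists. Their CDS ratio in Harr against Chx, 0.46, lay likewise between that of the active zone genes, 0.56, and those of the other postsynaptic genes, 0.23, and of the inhibitory genes, 0.05. The 5′ UTR share in WT and Chx was 10.28% and 15.58% in the scaffold genes and 24.55% and 24.38% in the inhibitory genes. It was 6.51% and 9.13% in the active zone genes and 6.3% and 7.64% in the other postsynaptic genes. The lists were not matched for CDS length, and whether they differ was not tested.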

How the data were processed

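Ribosome-protected fragments were sequenced from 1 library each of WT, Chx and Harr neurons, grouped by the treatment in the labels. The deposited tables, in the format of Plastid, hold whole counts of reads for each exon segment of the 5′ UTR, CDS and 3′ UTR of each transcript, with the coverage signal (count per nt) and the RPKM that the authors derived from them. Per the file headers, reads of 25 to 100 nt aligned to mm10 were counted at their 5′ ends with no offset. Columns of other samples numbered 0.

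Counts alone were used. Of 142446 transcript identifiers, GENCODE M21 held 99.1% in the same version and 99.4% when versions were ignored. Segments were summed over the longest transcript of a gene, and the most read transcript was an alternative. Log2 ratios used a pseudocount of 0.5, a minimum of 10 UTR reads in a pair or 100 CDS reads in 3 libraries, and 95% counting intervals. The calls were tested on simulated data. Named genes were the 3 highest and 3 lowest by WT level, by 5′ UTR:CDS odds ratio and CDS ratio of Harr to Chx, and by CDS ratio of Chx to WT, the 3 with the largest share of few-read segments, at least 1 of each family, and the 2 highest and 2 lowest of the further postsynaptic list. Values of other members complete the account and were chosen after they were seen. Members, gene lists and rules were chosen with earlier results of these data known. Python 3.11.15, pandas 2.3.3, numpy 2.4.6 and scipy 1.17.1 were used. For the search of reading frames in such libraries the authors removed molecular identifiers, filtered rRNA reads with Bowtie and aligned to the transcriptome with TopHat, which allowed several alignments of a read. The deposited tables name alignments freed of rRNA reads and, by their name, of duplicates. For other Plastid counts the authors mapped to mm10 with Rsubread, and which aligner made the present tables is not given in the sources used here, so reads with several alignments may be counted.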

Additional observations from a re-analysis of the deposited data

How the results depend on the processing

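Of 145 values recomputed under alternative settings for 31 results, 123 were taken as alike, 20 moved and 2 reversed. Counts of members were taken as alike within a ratio of 1.5, shares within their Wilson interval, medians of log2 values within the median SE of the members, median levels within 5% and ratios along the CDS within 1 SE. Per 1000000 library reads, the median CDS ratio over members reversed to −0.093 (Harr to Chx) and −0.023 (Harr to WT), with the medians of all genes at −0.595 and −0.509, and the members called were 0 higher and 3 lower for Harr to Chx (0.559% and 31.2% of genes) and 0 higher for Harr to WT (0.681%), the shift following from the smaller CDS share of the Harr library. The members called higher in Harr to Chx were 2 with size factors (5.06% of genes), 2 with a pseudocount of 5 (5.67%) and 7 when CDS segments starting within 100 nt of the start codon were left out (5.75%), and 8 in Harr to WT under that last setting (6.05%). The 5′ UTR share became 12.98% (WT), 18.38% (Chx) and 37.83% (Harr) on the most read transcripts, 9.74% and 14.44% (WT and Chx) without members whose UTRs overlap a CDS, and 10.87%, 16.24% and 33.53% without the member with the most reads. At 300 to 900 nt the ratio relative to the far CDS became 0.389 (Harr to Chx) and 0.415 (Harr to WT) on the most read transcripts and 0.442 and 0.475 without Ctnnd2. With few-read segments set at 0.2 of the CDS density, 8 members passed in place of 5, and 9.21% of genes. Except where stated, the cause of these changes was not tested. No paired analysis was possible because each treatment has 1 library. The Harr library was the shallowest, so members with few reads there, such as Homer2, Grip2 and Kalrn in the 5′ UTR, have wide intervals.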
